A study of Mus musculus with 16 samples.

Results

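The genes described here are 9 transcription factors that are enriched in liver, out of 22322 genes measured in each of 2 tissues of diet-induced obese mice. They are Hnf4a (ENSMUSG00000017950), the forkhead factors Foxa1, Foxa2 and Foxa3, Cebpa, Onecut1 (also called HNF6), Nr5a2 (LRH-1), Nr1i2 (PXR) and Nr1i3 (CAR), and they were taken by symbol, 1 row each in the liver and the fat table. Poly(A)-selected RNA was sequenced from liver (5 vehicle and 5 halofuginone libraries) and from white adipose tissue (3 and 3). Halofuginone, an inhibitor of the prolyl-tRNA synthetase activity of Eprs1, was injected into the peritoneum at 100 μg/kg every 2 days for 8 weeks, and the control animals received vehicle. The control libraries carry the label HFD and the treated libraries the label H100, and both arms are from mice made obese by diet, with no lean or untreated arm among the samples. The labels give no strain, sex, age, length of diet or fat depot, and do not say whether each library is 1 animal or a pool. Libraries are numbered as in the labels. The p-values below measure the spread between these libraries, which the labels do not tie to separate animals.

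Hepatocytes owe their identity to a small network of transcription factors that bind one another's promoters and those of genes for plasma proteins, glucose and lipid metabolism, bile acid synthesis and detoxification. HNF4A is the nuclear receptor at the centre of this network, the FOXA proteins open chromatin ahead of other factors, and C/EBPα and ONECUT1 act on metabolic genes of the mature hepatocyte. NR5A2 controls bile acid and cholesterol genes, while PXR and CAR are sensors of drugs and of endogenous lipids that switch on cytochrome P450 genes.

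The promoter sequences of Hnf4a and of the Foxa family are shown because Hnf4a and Foxa3 were the members called lower in liver. They are RefSeq windows of 300 bases (GRCm38.p6), from 250 bases before to 50 after an annotated start, and were matched for all 9 members (13 windows). Each is written in lower case, 5′ to 3′ on the gene's strand, with matches to the searched motifs in capitals. Hnf4a has 2 windows, both on the plus strand: the upstream start at chr2:163506607-163506906, known as the P2 promoter, and the downstream start at chr2:163546905-163547204, known as P1, which is the main one in adult liver. The deposited gene counts do not separate transcripts of the 2 starts. Foxa3 lies on the minus strand at chr7:19023490-19023789, Foxa1 on the minus strand at chr12:57546062-57546361, and the first of 3 Foxa2 windows on the minus strand at chr2:148046920-148047219.
Hnf4a, upstream start: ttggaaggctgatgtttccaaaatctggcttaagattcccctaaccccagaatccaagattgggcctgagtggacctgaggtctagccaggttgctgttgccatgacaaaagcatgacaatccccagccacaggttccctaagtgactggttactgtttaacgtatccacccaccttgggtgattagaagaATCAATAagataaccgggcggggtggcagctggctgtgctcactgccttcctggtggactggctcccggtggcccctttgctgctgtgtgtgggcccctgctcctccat
Hnf4a, downstream start: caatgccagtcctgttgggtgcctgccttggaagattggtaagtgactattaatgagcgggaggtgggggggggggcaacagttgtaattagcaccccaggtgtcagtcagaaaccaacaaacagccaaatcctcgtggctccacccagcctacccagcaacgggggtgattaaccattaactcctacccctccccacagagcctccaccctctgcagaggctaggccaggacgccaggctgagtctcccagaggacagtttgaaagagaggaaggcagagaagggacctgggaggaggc
Foxa3: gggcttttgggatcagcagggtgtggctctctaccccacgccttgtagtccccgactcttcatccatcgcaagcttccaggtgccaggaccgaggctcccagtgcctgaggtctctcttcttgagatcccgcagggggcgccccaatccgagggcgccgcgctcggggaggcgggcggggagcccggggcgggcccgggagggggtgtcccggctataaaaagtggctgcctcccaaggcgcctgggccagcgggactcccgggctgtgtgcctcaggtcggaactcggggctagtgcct
Foxa1: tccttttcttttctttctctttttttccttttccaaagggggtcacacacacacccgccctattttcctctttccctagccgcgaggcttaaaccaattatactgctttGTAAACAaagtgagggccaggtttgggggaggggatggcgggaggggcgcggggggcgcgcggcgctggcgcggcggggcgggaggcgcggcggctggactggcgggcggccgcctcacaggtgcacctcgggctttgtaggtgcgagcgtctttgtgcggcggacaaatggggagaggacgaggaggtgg
Foxa2, first window: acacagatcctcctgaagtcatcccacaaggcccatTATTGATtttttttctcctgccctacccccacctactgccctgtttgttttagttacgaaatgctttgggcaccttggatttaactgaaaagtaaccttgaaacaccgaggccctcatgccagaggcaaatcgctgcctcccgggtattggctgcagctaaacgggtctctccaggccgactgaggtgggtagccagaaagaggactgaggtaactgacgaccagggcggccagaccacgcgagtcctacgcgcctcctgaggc

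The capitals in the upstream Hnf4a window mark ATCAATA, the ONECUT core, whose first base lies at position −59, counted from the start. The same core, read on the other strand as TATTGAT, begins at position −214 from the first Foxa2 start. These were 2 of the 13 member windows, and 2.05% of all 32851 RefSeq windows of this length hold the core on either strand. The Foxa1 window holds GTAAACA, the forkhead core TGTTTAC read on the other strand, at position −141 (3.65% of all windows). No match was found in the downstream Hnf4a window or in the Foxa3 window for any of 8 searched motifs. The other 6 were CAAAGTCCA for HNF4A (0.475% of all windows), TTGCGCAA for C/EBP (0.183%), TCAAGGTCA for NR5A2 (0.423%), the shared nuclear receptor motif AGGTCA (16.3%), TGATGNAAT for C/EBP-ATF dimers (0.965%) and the E-box CACGTG (7.15%). AGGTCA also occurs inside the NR5A2 letters, so matches to these 2 motifs can overlap. Among the windows not printed, Nr5a2 held TGATGGAAT at position −62 from its second start and AGGTCA at position −64 from its first, and Nr1i3 and Onecut1 each held CACGTG. A match is a description of the letters in the window, and no binding was measured.

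Library totals were 20309956 to 31980683 counts in liver and 17070614 to 21387799 in fat, so that a count of 0 allowed up to 0.0983 to 0.150 CPM (TMM-scaled counts per 1000000) in liver and 0.139 to 0.1799 CPM in fat. That limit is 3 counts and covers counting error only. All 11 hepatocyte markers were above it in every liver and all 6 adipocyte markers in every fat library. In liver, 2850 of 12311 genes were called at an adjusted p under 0.05 (edgeR quasi-likelihood fit, Benjamini-Hochberg), or 23.2%, with 1558 higher and 1292 lower under halofuginone. With library size as the only scaling the split was 2789 higher and 838 lower, and the median over all genes moved from 0.0168 to 0.173 (log2), so the changes below are relative to the TMM scaling. Halofuginone liver 1 stood apart from the other 4: of 12 values of named genes that lay past Dixon's limit of 0.71 for a group of 5, 8 were in this library. Foxa1, Onecut1 and Nr1i3 were among them, so for such genes the fit without this library is not a separate test. With it left out 5312 of 12422 genes were called (42.8%). Counts of members and list genes called in liver, and fold changes of the members other than Foxa2, are given with and without it.

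Under halofuginone Hnf4a and Foxa3 were lower in liver, and no member was called higher. These 2 of 9 stand against 10.5% of all tested genes called lower, 12.7% called higher and 23.2% called in either direction. The share of members called in either direction was thus near that of all genes. The median log2 fold change of the 9 was −0.50, against 0.0168 over all tested genes, and 8 of 9 fold changes were below 0. In no member were the 2 arms free of overlap, against 11.7% of genes tested (6.55% with the treated arm lower). Without halofuginone liver 1, 5 of 9 were called lower (Hnf4a, Foxa1, Foxa3, Cebpa and Nr1i3) against 21.6% of genes, and 0 were called higher against 21.2%. High Foxa1 and Nr1i3 values were themselves among those that set this library apart. The number of members called was between 0 and 5 as single libraries were left out.

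**Figure D1:**
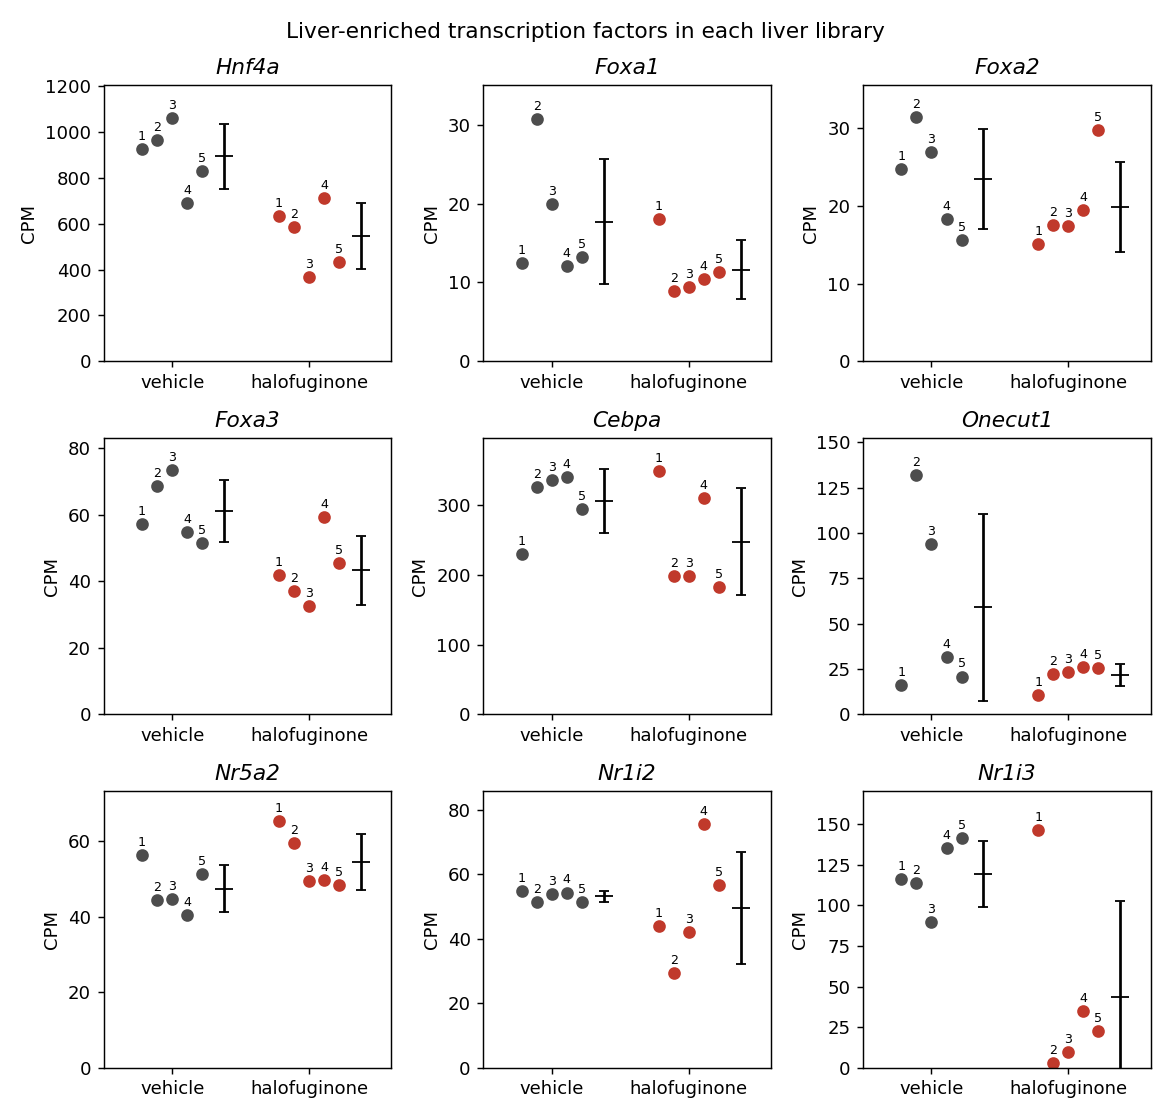
Each of the 9 panels plots 1 transcription factor, with CPM on a linear axis from 0, 1 point per liver library numbered by replicate, and the mean ± SD (n = 5) beside each arm. Hnf4a falls from 895 to 546 CPM with overlap between vehicle 4 and halofuginone 4, and Nr1i3 is at 2.57 to 34.9 CPM in halofuginone livers 2 to 5 but at 147 CPM in halofuginone liver 1; the lower end of its SD bar passes below 0 and is not drawn.

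Hnf4a, the nuclear receptor needed for most hepatocyte gene expression, was 1.64-fold lower in halofuginone livers. Its levels in vehicle livers 1 to 5 were 926, 967, 1061, 690.4 and 829 CPM. In halofuginone livers 1 to 5 they were 635, 584, 369, 711 and 431 CPM. All halofuginone livers but number 4 were below every vehicle liver, and number 4 lay just above vehicle liver 4. The means were 895 ± 141 and 546 ± 143 CPM (SD, n = 5 in each arm), which is a log2 fold change of −0.71 (edgeR adjusted p 0.0269, SE 0.20). Without halofuginone liver 1 the fold change was −0.80 (adjusted p 0.00982). The call rested on several single libraries, since edgeR's adjusted p was 0.0533, 0.0612 and 0.0590 without vehicle liver 1, 2 or 3 and 0.0646 and 0.0689 without halofuginone liver 3 or 5. The call was also lost in edgeR's 1 fit of all 16 libraries (adjusted p 0.579). That fit estimates the spread of each gene over both tissues together, and Hnf4a counts in fat ran from 0 to 214. The part of the fat libraries in that loss was not tested. In bulk RNA, fewer hepatocytes and less RNA per hepatocyte cannot be told apart. The summed level of the 11 hepatocyte markers was 141434 to 157886 CPM in vehicle livers and 134000.0, 92860, 70480, 121849 and 109037 CPM in halofuginone livers 1 to 5, so the liver with the lowest Hnf4a, number 3, also had the lowest sum. Most of that sum was Alb (94154 ± 5244 CPM in vehicle, log2 fold change −0.86, edgeR adjusted p 0.0742), and across the list 2 markers were called higher and 1 lower (3 and 5 without halofuginone liver 1), with a median log2 fold change of −0.17. By library, the median log2 difference of the 11 markers from the vehicle mean was lowest in halofuginone liver 2 (−0.79), with number 3 next (−0.55). Markers of other liver cells called lower were 0 of 8 for macrophages, 3 of 8 for stellate cells, 1 of 6 for cholangiocytes and 3 of 8 for endothelium, where 2 were called higher, against 10.5% of all genes lower and 12.7% higher. When halofuginone liver 1 was left out these were 3, 4, 1 and 4, with 1 endothelial marker higher, against 21.6% lower and 21.2% higher. The part of cell content in the Hnf4a difference was not tested.

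Foxa3, the forkhead factor most abundant of the 3 in adult liver, was 1.41-fold lower. It was at 57.2, 68.6, 73.4, 54.8 and 51.5 CPM in vehicle livers 1 to 5. In halofuginone livers 1 to 5 it was at 41.9, 37.0, 32.5, 59.4 and 45.6 CPM. As for Hnf4a, halofuginone liver 3 was the lowest, and number 4 was the only one inside the vehicle range. The means were 61.1 ± 9.41 and 43.3 ± 10.3 CPM (SD, n = 5 in each arm), which is a log2 fold change of −0.50 (edgeR adjusted p 0.0462, SE 0.16). Without halofuginone liver 1 it was −0.51 (adjusted p 0.0383). The call was lost when any 1 vehicle liver or halofuginone liver 2, 3 or 5 was left out, with edgeR adjusted p values of 0.0547 (without vehicle liver 5) to 0.114 (without halofuginone liver 3).

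Foxa1 and Foxa2, the other forkhead pioneer factors, were not called. Foxa1 was at 12.5, 30.7, 19.9, 12.1 and 13.3 CPM in vehicle livers 1 to 5 and at 18.0, 8.91, 9.37, 10.5 and 11.3 CPM in halofuginone livers 1 to 5. Halofuginone livers 2 to 5 were below every vehicle liver, and number 1 was above 3 of them. The log2 fold change was −0.61 (SE 0.28, edgeR adjusted p 0.135), and without halofuginone liver 1 it was −0.84 (SE 0.27, adjusted p 0.0268). That library was set apart partly by its high Foxa1 value, so passing the test without it is not separate evidence of a fall. Vehicle liver 2 held the highest value, and without it the fold change over the other 9 livers was −0.33 (adjusted p 0.338). Foxa2 was at 24.8, 31.5, 27.0, 18.3 and 15.7 CPM in vehicle livers and at 15.1, 17.6, 17.5, 19.4 and 29.8 CPM in halofuginone livers. Its arms overlapped widely, with a log2 fold change of −0.23 (edgeR adjusted p 0.453, SE 0.22) that no single library turned into a call. Without halofuginone liver 5, its highest treated value, the fold change was −0.43 (adjusted p 0.153), and with each library left out alone it lay between −0.43 and −0.13.

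Cebpa encodes C/EBPα, a leucine zipper factor of gluconeogenic, urea cycle and adipocyte genes. In vehicle livers 1 to 5 it was at 229.8, 326, 337, 339.8 and 295 CPM. In halofuginone livers 1 to 5 it was at 349, 198, 199, 311 and 182 CPM. The treated livers fell into numbers 1 and 4, inside or above the vehicle range, and numbers 2, 3 and 5, below it. The log2 fold change was −0.30 (SE 0.20, edgeR adjusted p 0.290) over all livers and −0.48 (SE 0.18, adjusted p 0.0490) without halofuginone liver 1, where it passed the test.

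Onecut1, a cut-homeodomain factor that acts with HNF4A and FOXA2 in liver, varied most among the vehicle livers. These stood at 16.5, 132, 94.0, 31.5 and 20.9 CPM. Halofuginone livers 1 to 5 stood at 10.9, 22.6, 23.3, 26.1 and 25.7 CPM. Vehicle livers 2 and 3 were far above all others, and vehicle livers 1 and 5 were inside the treated range. The log2 fold change was −1.44 (SE 0.54, edgeR adjusted p 0.0718). It was −0.93 (adjusted p 0.194) without vehicle liver 2, and −1.68 (adjusted p 0.0439), past the threshold, without vehicle liver 1. Without halofuginone liver 1 it was −1.29 (adjusted p 0.0868). Vehicle liver 2 was also the highest for Foxa1 and Foxa2.

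Nr5a2, which controls bile acid synthesis and cholesterol transport genes, was the only member whose fold change was above 0. It was at 56.3, 44.4, 44.6, 40.5 and 51.4 CPM in vehicle livers 1 to 5. In halofuginone livers 1 to 5 it was at 65.3, 59.5, 49.5, 49.8 and 48.4 CPM. Treated livers 1 and 2 were above every vehicle liver, and the other 3 were inside the vehicle range. The log2 fold change was 0.20 (SE 0.12, edgeR adjusted p 0.239), and 0.10 (SE 0.11, adjusted p 0.482) without halofuginone liver 1. With library size alone as the scaling it was 0.35 (adjusted p 0.0478), past the threshold.

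Nr1i2 encodes PXR, which binds drugs, steroids and bile acids and induces Cyp3a genes. Vehicle livers 1 to 5 were at 54.7, 51.3, 54.0, 54.3 and 51.4 CPM, the narrowest spread of any member in vehicle (SD 1.64 CPM around a mean of 53.1). Halofuginone livers 1 to 5 were at 44.0, 29.5, 42.1, 75.6 and 56.6 CPM, so that treated livers lay on both sides of the vehicle range. The highest treated liver was number 4, which was also the highest for Hnf4a and Foxa3. The log2 fold change was −0.10 (SE 0.20, edgeR adjusted p 0.741) and −0.08 (adjusted p 0.785) without halofuginone liver 1, and its sign turned with library size alone (0.04) and without halofuginone liver 2 (0.03).

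Nr1i3 encodes CAR, the constitutively active receptor that induces Cyp2b and Cyp2c genes. In vehicle livers 1 to 5 it was at 116, 114, 89.8, 136 and 142 CPM. In halofuginone livers 1 to 5 it was at 147, 2.57, 9.91, 34.9 and 22.5 CPM. Halofuginone livers 2 to 5 were far below every vehicle liver, while number 1 was above all of them. In counts, halofuginone liver 2 held 69 and halofuginone liver 1 held 2954, of 24715019 and 20309956 in all. Over all 10 livers the log2 fold change was −1.47 (SE 0.77, edgeR adjusted p 0.178). Without halofuginone liver 1 it was −2.79 (SE 0.56, adjusted p 0.00243), a 6.93-fold fall and the largest change of the 9 members in that comparison. That library was set apart partly by its high Nr1i3 value, so the call without it is not separate evidence of a fall. On the deposited FPKM values of all 10 livers (log2 of FPKM + 1) limma also called Nr1i3, at −2.23 (SE 0.67, adjusted p 0.0317), and DESeq2 gave no adjusted p for this gene.

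**Figure D2:**
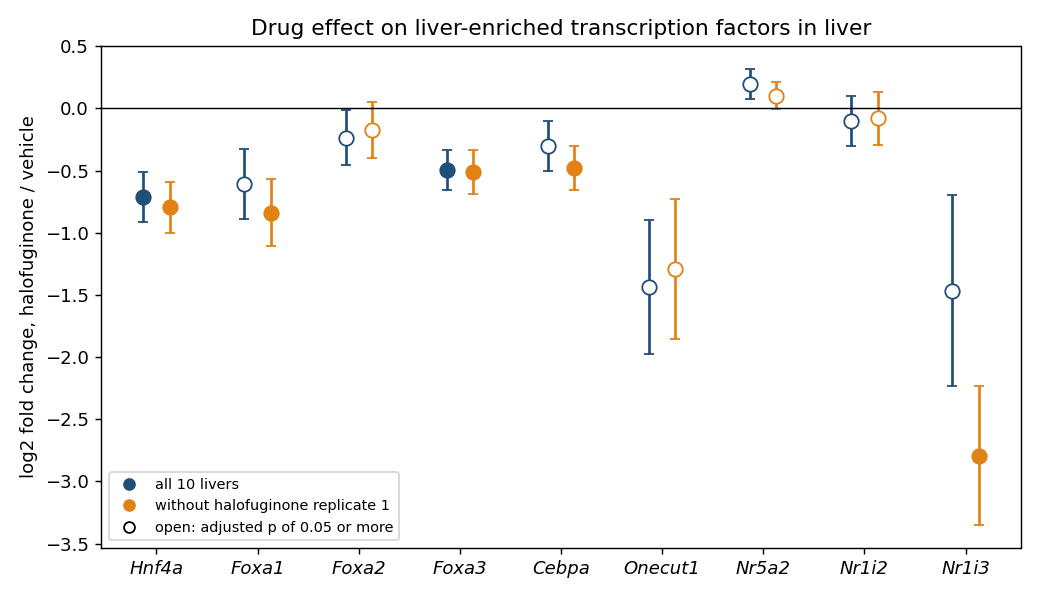
The y axis is the edgeR log2 fold change of halofuginone over vehicle with its SE, for all 10 livers (blue) and without halofuginone liver 1 (orange), and filled points have an adjusted p under 0.05. Hnf4a and Foxa3 are filled in both comparisons, and Nr1i3 moves from −1.47 to −2.79.

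Per length, Hnf4a was the most abundant member in vehicle liver, at 195 ± 25.7 FPKM (SD, n = 5). It was followed by Cebpa at 111 ± 17.0 FPKM, Nr1i3 at 62.1 ± 11.2 FPKM, Foxa3 at 28.3 ± 3.69 FPKM and Nr1i2 at 19.7 ± 1.02 FPKM. Each of the first 4 had a range wholly above that of the next. The order then ran Onecut1 (13.9 ± 11.8 FPKM), Nr5a2 (11.5 ± 1.47 FPKM), Foxa2 (10.6 ± 2.71 FPKM) and Foxa1 (5.21 ± 2.198 FPKM), and from Nr1i2 downward neighbours did not differ beyond their ranges. Under halofuginone the order of means was Hnf4a (131 ± 28.2 FPKM), Cebpa (99.0 ± 25.5), Nr1i3 (22.8 ± 29.2), Foxa3 (22.2 ± 4.09), Nr1i2 (20.3 ± 6.34), Nr5a2 (14.4 ± 1.74), Foxa2 (10.03 ± 2.82), Onecut1 (5.83 ± 1.75) and Foxa1 (3.80 ± 1.03). There the only neighbours whose ranges did not overlap were Foxa2 and Onecut1. By the median Nr1i3 ranked 6 in place of 3 among the treated livers, because its mean rests on halofuginone liver 1.

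For the 2 called members, the genes with the most similar pattern over the 10 livers were looked up among 8817 genes with at least 5 CPM, by the root mean square difference of log2 CPM after subtracting each gene's vehicle mean. Nearest to Hnf4a were Tesk2, a protein kinase gene (difference 0.149; log2 fold change −0.81, edgeR adjusted p 0.0136), and Lurap1l (0.191; −0.73, adjusted p 0.0173). Nearest to Foxa3 were Tns1, which encodes the focal adhesion protein tensin 1 (0.167), and the mitochondrially encoded mt-Co1 (0.169), of which neither was called (edgeR adjusted p 0.157 and 0.242). These genes share the 10 libraries and their scaling with the members. They were picked by likeness over those libraries, so a fold change near that of the member follows from the choice.

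Of 36 tested genes for other transcription factors of liver, 3 were called higher and 3 lower, with a median log2 fold change of 0.00094 against 0.0168 over all genes and a background of 12.7% higher and 10.5% lower. With halofuginone liver 1 left out, 4 of the 36 were called higher and 10 lower (median 0.0273), against 21.2% and 21.6% of all genes. Those called higher were Atf5 (2.16, SE 0.34, edgeR adjusted p 0.00410), a stress-induced leucine zipper factor abundant in liver, the nuclear receptor gene Rora (1.09, SE 0.18, adjusted p 0.00483) and Cebpg (0.60, SE 0.16, adjusted p 0.0217), whose product pairs with other C/EBP and ATF proteins. Those called lower were Nfia (−0.65, SE 0.19, edgeR adjusted p 0.0304), Onecut2, the paralog of Onecut1 (−0.51, SE 0.15, adjusted p 0.0336), and Cebpb, the paralog of Cebpa (−0.32, SE 0.10, adjusted p 0.0430). Rxra, the partner of PXR and CAR, named after its values were seen, was at 451 ± 20.4 and 465 ± 59.99 CPM (SD, n = 5 each, adjusted p 0.810). Among 15 coactivators, corepressors and cytoplasmic partners, Dnajc7, which holds CAR in the cytoplasm, was called higher (0.30, SE 0.08, edgeR adjusted p 0.0220). Fkbp5 (−1.02, SE 0.16, edgeR adjusted p 0.00377), a chaperone gene induced by glucocorticoids, and Ppargc1a (−0.92, SE 0.31, adjusted p 0.0492), the coactivator of HNF4A and PXR, were called lower. Of these 15, 1 was called higher and 5 lower with halofuginone liver 1 left out, a library set apart partly by its high Ppargc1a value. Atf5, Rora and Fkbp5 kept their call under each of 19 alternatives. Cebpg, Nfia, Onecut2, Cebpb, Dnajc7 and Ppargc1a did not, and each library other than halofuginone liver 1, left out alone, ended at least 1 of these 6 calls (edgeR adjusted p 0.0503 to 0.115).

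Genes linked to the members in other work were then read against them, over all 10 livers, where 10.5% of all genes were called lower and 12.7% higher, and with lists that share genes. Of 12 genes linked to HNF4A, 4 were called lower and 0 higher (median log2 fold change −0.38): the named ones were Otc, a urea cycle enzyme (−1.30, SE 0.41, edgeR adjusted p 0.0429), Ttr, the thyroxine carrier (−1.17, SE 0.30, adjusted p 0.0217), and Apoa2, an apolipoprotein of HDL (−0.93, SE 0.26, adjusted p 0.0281). Of 8 genes linked to the FOXA factors, Igfbp1 (3.17, SE 0.64, edgeR adjusted p 0.0101) and Tat (1.66, SE 0.32, adjusted p 0.00827) rose and 1 gene was called lower, with a median of −0.02. Of 9 genes linked to C/EBPα, Tat and Hamp (1.46, SE 0.44, edgeR adjusted p 0.0354), the iron hormone hepcidin, were called higher and Cebpb lower, with a median of 0.04. ONECUT1-linked genes had 5 of 8 called lower (median −1.09), among them Cyp7a1, the rate-limiting enzyme of bile acid synthesis (−2.30, SE 0.67, edgeR adjusted p 0.0321), and Cyp2c37 (−1.40, SE 0.30, adjusted p 0.0112). Cyp7a1 was also 1 of the 2 genes called lower among 10 NR5A2-linked genes (median 0.02). When halofuginone liver 1 was left out, 8 of the 12 HNF4A-linked genes, 2 of the 8 FOXA-linked, 2 of the 9 C/EBPα-linked, 5 of the 8 ONECUT1-linked and 3 of the 10 NR5A2-linked genes were called lower, against 21.6% of all genes. Called higher were 2 FOXA-linked, 2 C/EBPα-linked and 0 HNF4A-, ONECUT1- or NR5A2-linked genes, against 21.2%. High Otc and Cyp7a1 values were among those that set halofuginone liver 1 apart. For the lists that hold them the counts without it are therefore not a separate test. Cyp2c37, Igfbp1 and Tat kept their call under each of 19 alternatives, while Otc, Ttr, Apoa2, Hamp and Cyp7a1 each lost theirs without at least 1 single library other than halofuginone liver 1 (edgeR adjusted p 0.0511 to 0.0987).

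Genes linked to the xenobiotic receptors had more members called lower than higher. Of 14 tested PXR-linked genes 5 were called lower and 0 higher (median −0.93), and of 15 CAR-linked genes 6 were called lower and 0 higher (median −1.30), against 10.5% of genes called lower. Cyp3a11, the main PXR-induced P450, fell from 1375 ± 334 to 231 ± 91.7 CPM (SD, n = 5 each, log2 fold change −2.58, SE 0.28, edgeR adjusted p 0.000899), although Nr1i2 itself was not called. Alas1, which starts the haem synthesis that P450s need, fell from 755 ± 230.0 to 152 ± 42.7 CPM (−2.31, SE 0.27, edgeR adjusted p 0.00147). Gsta1, low in both arms, fell from 1.61 ± 1.02 to 0.0833 ± 0.0885 CPM (−4.16, SE 0.59, edgeR adjusted p 0.00317). Its treated mean lay under the limit of 3 counts in liver (0.0983 to 0.150 CPM), so the size of that fall is uncertain. Among CAR-linked genes, Cyp2c29 fell from 733 ± 363 to 159 ± 135 CPM (−2.21, SE 0.49, edgeR adjusted p 0.0131), Aldh1a7 had a log2 fold change of −1.74 (SE 0.26, adjusted p 0.00377) and Cyp2c50 one of −1.63 (SE 0.43, adjusted p 0.0231). The Cyp2c50 call was lost without halofuginone liver 3, 4 or 5 (adjusted p 0.0580, 0.0530 and 0.0576). Cyp2b10, the best known CAR target, named here after its values were seen, was at 7.30 ± 6.33 and 6.69 ± 5.38 CPM (log2 fold change −0.13, SE 0.81, adjusted p 0.918). Reads shared between near-identical paralogs make the Cyp2b, Cyp2c, Cyp3a and Gst values uncertain.

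The linked genes were then set beside their receptor library by library. The median log2 difference of the 15 CAR-linked genes from the vehicle mean was −0.65 in halofuginone liver 1, where Nr1i3 was above every vehicle liver, and −2.34, −1.59, −0.50 and −1.63 in numbers 2 to 5. Halofuginone liver 2, with the lowest Nr1i3, had the lowest median, and number 4, with the highest Nr1i3 of livers 2 to 5, the one nearest to vehicle. Numbers 1, 3 and 5 did not follow this order. Number 1 had the highest Nr1i3 (147 CPM), but its median of −0.65 was lower than that of number 4. Numbers 3 and 5 had Nr1i3 at 9.91 and 22.5 CPM but medians of −1.59 and −1.63. For PXR-linked genes the medians were −0.49, −1.914, −1.496, −0.40 and −1.18, with numbers 2 and 4 again at the extremes. Nr1i2 was also lowest in number 2 and highest in number 4. Of livers 2 to 5, number 2 was also lowest and number 4 highest for hepatocyte markers (medians −0.79 and 0.18). The same held for HNF4A-linked genes (−0.95 and −0.36), so this order was not particular to CAR- and PXR-linked genes. Without halofuginone liver 1, 11 of 15 PXR-linked genes and 10 of 15 CAR-linked genes were called lower, against 21.6% of all genes. In that comparison 1 PXR-linked and 0 CAR-linked genes were called higher, against 21.2%. High Cyp2c29 and Cyp2c50 values were among those that set halofuginone liver 1 apart. The counts of CAR-linked genes without it are therefore not a separate test. Markers of the hepatocytes around the central vein, where CAR and P450 genes are mostly expressed, moved beside these values: 4 of 9 were called lower (Glul, Oat, Rhbg and Slc1a2), and their summed level was 14039 to 17541 CPM in vehicle livers and 14722, 3491, 4042, 9894 and 6431 CPM in halofuginone livers 1 to 5. Of 8 periportal markers 1 was called lower. These pericentral and periportal counts are over all livers, where 10.5% of all genes were called lower. With halofuginone liver 1 left out, 6 of 9 pericentral and 2 of 8 periportal markers were called lower, against 21.6% of all genes. Both periportal counts thus lay near the share over all genes. The part of zonal marker changes in the Nr1i3 and P450 values was not tested.

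**Figure D3:**
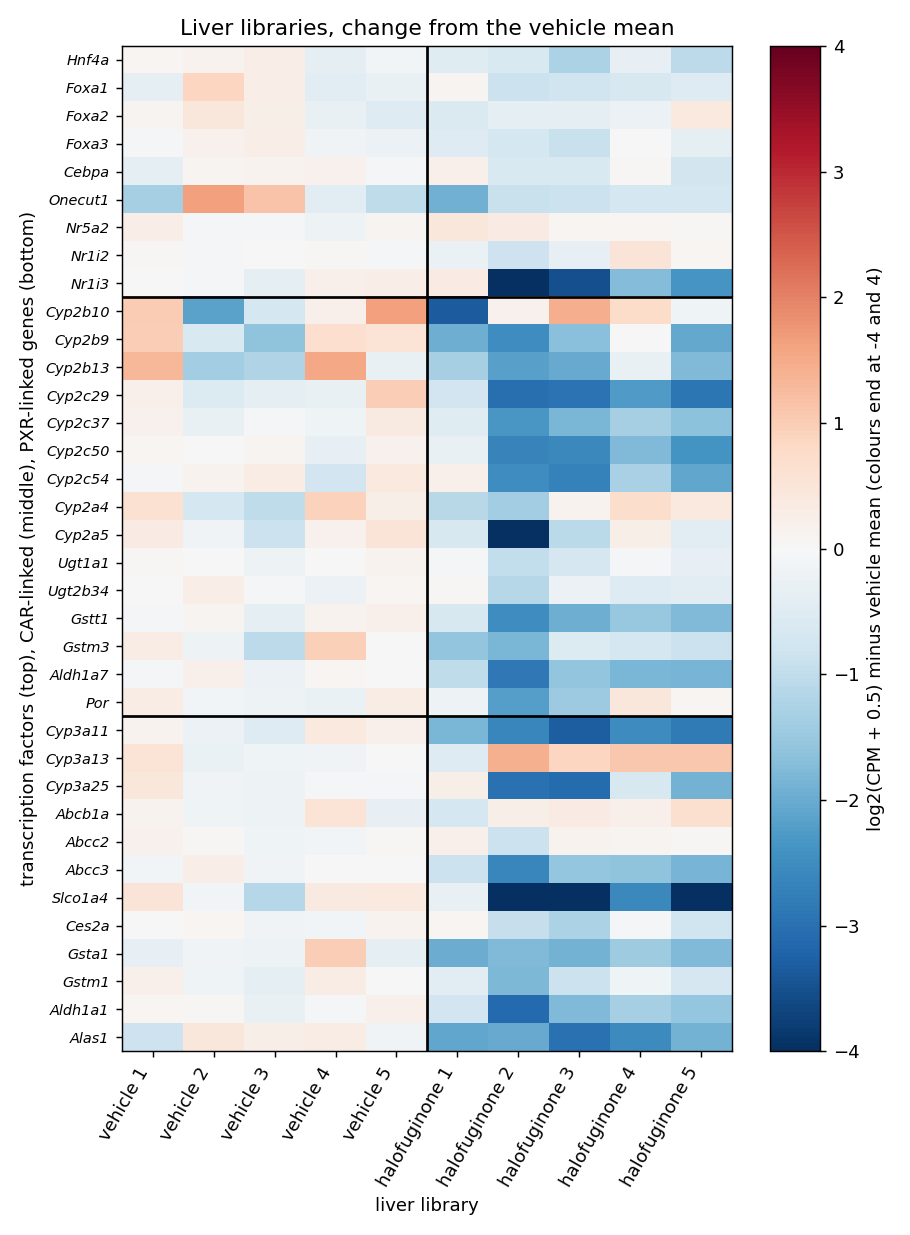
Colour gives log2(CPM + 0.5) minus the vehicle mean for each of the 10 liver libraries (columns), from −4 (blue) to 4 (red), for the 9 transcription factors, the CAR-linked and the PXR-linked genes tested (rows). Halofuginone livers 2 to 5 are blue for Nr1i3 and halofuginone liver 1 is not, while for the genes linked to PXR and CAR the median difference lies nearer 0 in livers 1 and 4 than in 2, 3 and 5.

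In white adipose tissue the members were mostly at or near 0. Only Hnf4a, Cebpa and Nr5a2 passed the filter on low counts, and 0 of these 3 were called by edgeR or DESeq2, with 0 at an unadjusted p under 0.05. Over all 14030 genes tested in fat, edgeR called 0 (0%), although 1881 had an unadjusted p under 0.05 and DESeq2 called 655. Foxa2 and Onecut1 had 0 counts in all 6 fat libraries, and Foxa3 and Nr1i3 had at most 1. Nr1i2 had 0, 2 and 4 counts in vehicle and 0 in each halofuginone library. These levels are at or near the limit of 3 counts per library, so no drug effect on them was detectable at this depth.

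Cebpa, which also drives adipocyte differentiation, was the one member abundant in fat. It was at 418, 452 and 311 CPM in vehicle fat 1 to 3 and at 339.8, 575 and 589 CPM in halofuginone fat 1 to 3. Treated libraries 2 and 3 were above all vehicle libraries and number 1 was inside their range, with a log2 fold change of 0.35 (edgeR adjusted p 0.621, SE 0.27). Nr5a2 was low, at 29, 25 and 18 counts in vehicle and 59, 45 and 43 in halofuginone libraries. Each treated library was above each vehicle library, as for 10.2% of genes tested in fat (20.6% in either direction), and the log2 fold change of 0.88 (SE 0.40) had an edgeR adjusted p of 0.402.

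Hnf4a was above the limit of 3 counts in some fat libraries of both arms, and Foxa1 in 1 library only. Hnf4a had 2, 214 and 76 counts in vehicle and 1, 0 and 101 in halofuginone libraries 1 to 3, with a log2 fold change of −1.61 (edgeR adjusted p 0.763, SE 1.84). Foxa1 had 64 counts in halofuginone library 1 and 0 in the other 5. Epithelial genes from the cholangiocyte list were uneven in the same libraries: Epcam had 9, 370 and 145 counts in vehicle and 24, 8 and 288 in halofuginone libraries, and Krt7 had 23, 80 and 25 in vehicle and 671, 1 and 42 in halofuginone libraries. The Hnf4a counts were thus highest in the libraries with most Epcam, and Foxa1 was present in the library with most Krt7. Epcam and Krt7 were not picked from the list by a set rule, so this likeness is not a test. The whole list of 7 genes did not follow Hnf4a: its summed level was 95.4, 113 and 888 CPM in vehicle and 125, 282 and 169 CPM in halofuginone libraries 1 to 3, with 5 to 7 and 3 to 7 genes above the limit of 3 counts. Most of the highest sums, in vehicle library 3 and halofuginone library 2, was Spp1 (869.9 and 279.6 CPM), a gene that macrophages also express. The part of other cell types in these values was not tested.

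**Figure D4:**
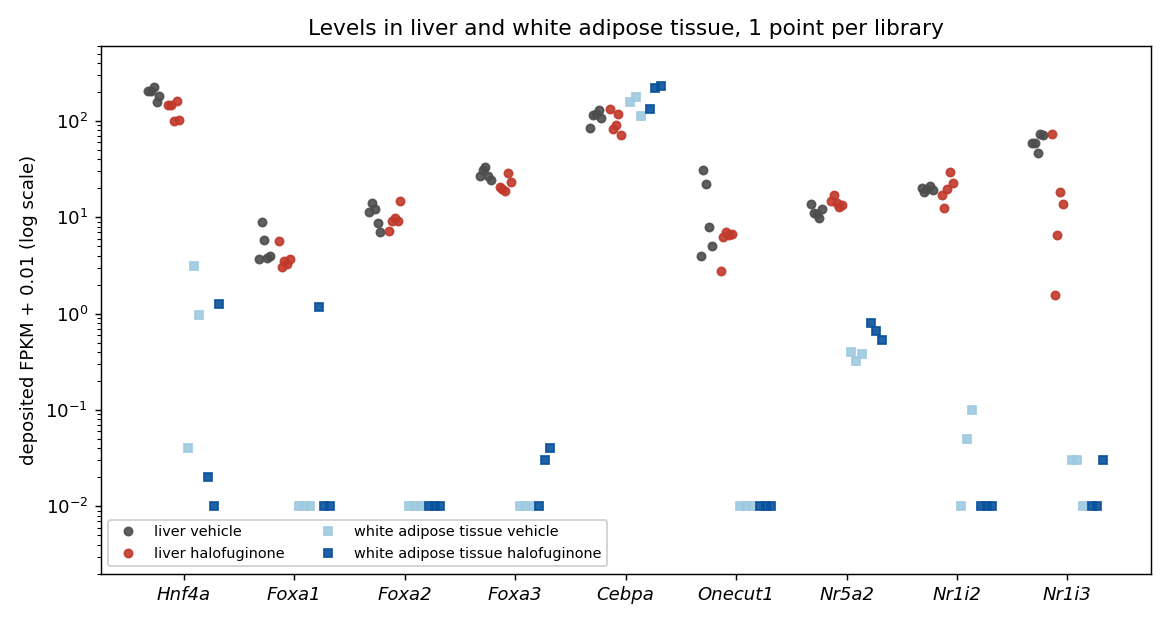
The log-scaled y axis is the deposited FPKM plus 0.01, with 1 point per library for liver (circles) and white adipose tissue (squares) in both arms. Cebpa lies at similar heights in both tissues, Hnf4a and Nr5a2 have low values in fat, and the other members are listed at or near 0 there except for 1 library with Foxa1 at 1.16 FPKM.

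Between vehicle livers and vehicle fat, in 1 fit of all 16 libraries, edgeR called 9 of 9 members higher in liver, against 31.5% of 14853 genes called higher in liver and 40.9% called higher in fat. Against a limit of 3 counts per fat library, and with library size alone, the scaling that gave the smaller values, the level in liver was at least 98.4-fold higher for Foxa1, 131-fold for Foxa2, 325-fold for Onecut1, 341-fold for Foxa3 and 671-fold for Nr1i3. With TMM over both tissues these were 226, 299, 754, 780.0 and 1530.0. For Hnf4a the log2 difference was 8.48 (SE 1.34, edgeR adjusted p 3.21e-05) and for Nr5a2 6.23 (SE 0.24, adjusted p 5.37e-12), and with library size alone they were 7.28 and 5.04. For Nr1i2, with at most 4 counts in vehicle fat, mean levels were 71.7 ± 2.14 CPM in liver (n = 5) and 0.0688 ± 0.0685 CPM in fat (SD, n = 3) in that joint scaling. Cebpa was the exception in size: the log2 difference was 0.77 (SE 0.25, edgeR adjusted p 0.0118) with TMM, but −0.42 (adjusted p 0.105) with library size alone and 0.62 (adjusted p 0.0628) without vehicle fat library 3, and the deposited FPKM was 83.6 to 129 in vehicle liver and 111 to 175 in vehicle fat. Its direction between the tissues therefore depends on the scaling.

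The drug effect in fat minus that in liver was not called by edgeR for any of the 9 members, against 0.949% of 14853 genes. Foxa1, Nr1i2 and Nr5a2 had an unadjusted p under 0.05 there, with no share over all genes at that threshold to set beside them. Nr1i2 had at most 4 counts in any fat library. The edgeR fit takes liver and fat libraries as independent. For Cebpa the difference was 0.63 (SE 0.35, edgeR adjusted p 0.409), for Nr5a2 0.66 (SE 0.28, adjusted p 0.265) and for Hnf4a −0.91 (SE 1.32, adjusted p 0.805). The Hnf4a value was 0.41 without vehicle fat library 2, which held 214 of its counts. DESeq2 called Foxa1 (7.46, SE 2.14, adjusted p 0.0182), whose fat counts all came from halofuginone library 1.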

How the data were processed

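RNA was extracted with Trizol, selected on oligo(dT) beads and made into NEBNext Ultra libraries, per the labels' protocols. The submitters' processing notes name fastp 0.18.0, Bowtie2 2.2.8, HISAT2, StringTie 1.3.1, RSEM and mm39, without roles; the strand and the handling of duplicate reads are not given in the sources used here. The authors deposited 1 table per tissue with counts and FPKM (fragments per length and depth) for 16 libraries, and 22267 of 22322 identifiers matched a symbol. The counts are whole numbers, but some genes combine 0 counts with a positive FPKM, and they may be rounded estimates. No 2 libraries of a group agreed within sampling noise (chi-square per degree of freedom at least 29.7 in liver and 50.5 in fat).

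Each tissue was fitted alone on the counts with edgeR 4.0.16 (R 4.3.3: filterByExpr, TMM, glmQLFit, glmQLFTest, two-sided, Benjamini-Hochberg over all genes tested, threshold 0.05), after the script was tested on simulated data. SE is the absolute log2 fold change over the square root of F. The tissue contrasts came from 1 fit of all 16 libraries. Alternatives were DESeq2 1.42.0, RLE size factors, library size alone, no filter, 1 fit of all libraries, a filter of 10 counts, a replicate block, limma 3.58.1 on log2 FPKM plus 1 or 0.1 (genes with a mean of at least 1 FPKM) and leaving out each library.

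The members, lists and tests were chosen with earlier results of these data known. Named besides the members were, per list, up to 3 called genes in each direction by size of change (mean of 1 CPM or more in the higher arm), and per called member the 2 genes of most similar pattern. Alb, the pericentral markers, Epcam, Krt7 and Spp1 were named from the marker lists, outside this rule. G6pc1, Tf and H19 of the lists matched no symbol, and a few other genes and 1 motif are not reported here. Levels of marker lists are sums of CPM, and FPKM served to compare levels between genes.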

Additional observations from a re-analysis of the deposited data

Results flagged for a closer look

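Values that lay apart from the other 4 livers of their arm (a gap to the next liver of more than 0.71 of the arm's range, Dixon's 95% limit) numbered 12 among 68 arms of the named genes, where chance gives about 1 in 20, or 3.4. Of these, 8 were in halofuginone liver 1.

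Among the members, halofuginone liver 1 was the highest treated liver for Foxa1 (18.0 CPM, next 11.3) and for Nr1i3 (147 CPM, next 34.9), and the lowest for Onecut1 (10.9 CPM, next 22.6). Among the other named genes it was the highest treated liver for Ppargc1a (5.71 CPM, next 2.82), Otc (325 CPM, next 129), Cyp7a1 (61.3 CPM, next 17.8), Cyp2c29 (396 CPM, next 141) and Cyp2c50 (569.9 CPM, next 206). In other libraries, Cebpb was highest in halofuginone liver 5 (59.7 CPM, next 53.2), Cebpg in vehicle liver 3 (103 CPM, next 69.9), Hamp in vehicle liver 1 (762 CPM, next 301) and Gsta1 in vehicle liver 4 (3.44 CPM, next 1.302).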

How the results depend on the processing

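Hnf4a had a negative log2 fold change in liver under all 19 alternatives (−0.84 to −0.57) and passed the threshold under 12, and Foxa3 likewise was negative under all (−0.65 to −0.35) and passed under 5. The number of members called was 2, and it was 1 with no filter on low counts, 0 in 1 fit of all 16 libraries (Hnf4a adjusted p 0.579) and 0 to 5 as single libraries were left out. All genes called in liver ranged from 1275 to 5312 as single libraries were left out, and called genes of the linked and regulator lists from 17 to 58. In fat DESeq2 called 655 genes, 1 fit of all libraries 334, limma on log2(FPKM + 1) 13 and edgeR with no filter 1, against 0, and leaving out single libraries gave 0 to 1. DESeq2 called 1 member for the tissue difference in drug effect. The sign turned for Nr1i2 (0.041 with library size alone, 0.027 without halofuginone liver 2, with −0.32 to 0.027 over single libraries), for Cebpa between vehicle tissues (−0.42 with library size alone) and for the Hnf4a tissue difference (0.41 without vehicle fat library 2, with −6.63 to 0.41 over single libraries). The causes were not tested.

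Libraries of the 2 arms share only a number: deviations of same-numbered livers correlated at −0.19 to 0.12 and 1 of 5 matched its own number best, and in fat at −0.60 to 0.18. With the replicate block 1901 liver genes and 0 members were called (Hnf4a −0.74, adjusted p 0.0642; Foxa3 −0.51, adjusted p 0.0960), and 0 genes in fat.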
